A study of Anopheles arabiensis with 20 samples.

Results

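The Chewaka and Tolay field populations of the malaria mosquito Anopheles arabiensis, both from Ethiopia, were compared gene by gene, with 4 libraries from each and 8 of the 20 libraries of the series in all. The libraries were taken by the population named in their titles, so no measured value entered the choice. Chewaka (CHW) and Tolay (TOL) females came from larvae collected at breeding sites in south-west Ethiopia and reared to adulthood on site, and the labels call both populations resistant to the pyrethroid deltamethrin and to DDT. Both therefore share the resistant status, and the comparison asks how 2 resistant field sites differ from each other, with age, sex, feeding and rearing reported alike. PolyA-selected RNA of 10 whole, non-blood-fed females aged 3 to 5 days was pooled for each library, so a value is an average over 10 insects and over all their tissues. The other 12 libraries, used here for the spread between replicates and for levels set side by side, came from another resistant field population (Asendabo, ASN) and from a susceptible laboratory strain each from Ethiopia (Sekoru, SEK) and from Mozambique (MOZ). The titles name 2 sequencing runs. All TOL and ASN libraries and CHW replicates 1 and 2 were in the first run, and CHW replicates 3 and 4 and all laboratory libraries were in the second.

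Mitochondrial DNA of insects encodes subunits of the respiratory chain and of ATP synthase, together with the ribosomal and transfer RNAs needed to translate them. Complex I takes electrons from NADH, complex III passes them from quinol to cytochrome c, and complex IV passes them to oxygen. All 3 pump protons whose return drives ATP synthase. In mosquitoes these enzymes are most abundant in tissues of high energy demand such as flight muscle. The mitochondrial genes were also the only ones whose identifiers could be given a name. All 37 mitochondrial identifiers matched a RefSeq table of the assembly AaraD3, and 0 of the 13830 nuclear AARA identifiers did, so nuclear genes are given by identifier and by number.

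Counts summed to between 14807515 and 18061723 per CHW library and between 15752014 and 20123670 per TOL library. Values are given as counts per 1000000 (CPM) after scaling by TMM, the trimmed mean of M values, which sets the bulk of genes equal between libraries. The common biological coefficient of variation was 0.195 within CHW and 0.188 within TOL. On the first principal component of the 8 libraries, which held 39.4% of their variance, CHW libraries lay between -29.72 and -14.47 and TOL libraries between 8.94 and 47.4. The populations did not overlap on it, and TOL replicate 1, at 47.4, lay farther from TOL replicate 2, at 24.03, than any other neighbours did within a population.

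Between CHW and TOL, 386 of 11018 genes tested (3.5%) differed at least 2-fold with an adjusted p under 0.05 in edgeR's quasi-likelihood test, and most of them were lower in Chewaka. Higher in CHW were 86 genes (0.781%), all of them nuclear. Lower in CHW were 300 genes (2.72%), of which 289 were nuclear and 11 mitochondrial. The median log2 fold change, CHW minus TOL throughout, was 1.46 over the genes called higher and -1.58 over those called lower. Changes of 4-fold or more were found in 16 of the higher and 93 of the lower genes, and of 8-fold or more in 2 and 31. These numbers and the median of -1.58 were the same with the 4 lower genes that had no CHW count set to their lower bound. Over all genes tested the lower and upper quartiles of the log2 fold change were -0.23 and 0.21.

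This excess of lower genes was not seen when libraries were scaled to their totals only. Then 229 genes were higher and 206 lower, and the median over all genes tested was a log2 fold change of 0.29 in place of 0.01. Directions are thus relative to the typical gene. The share of mitochondrial counts moved with the populations as well: it was 21.02% ± 3.92 in CHW and 32.8% ± 4.72 in TOL (SD, n = 4 each). Scaling computed without the mitochondrial genes gave 84 higher and 315 lower genes.

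**Figure D1:**
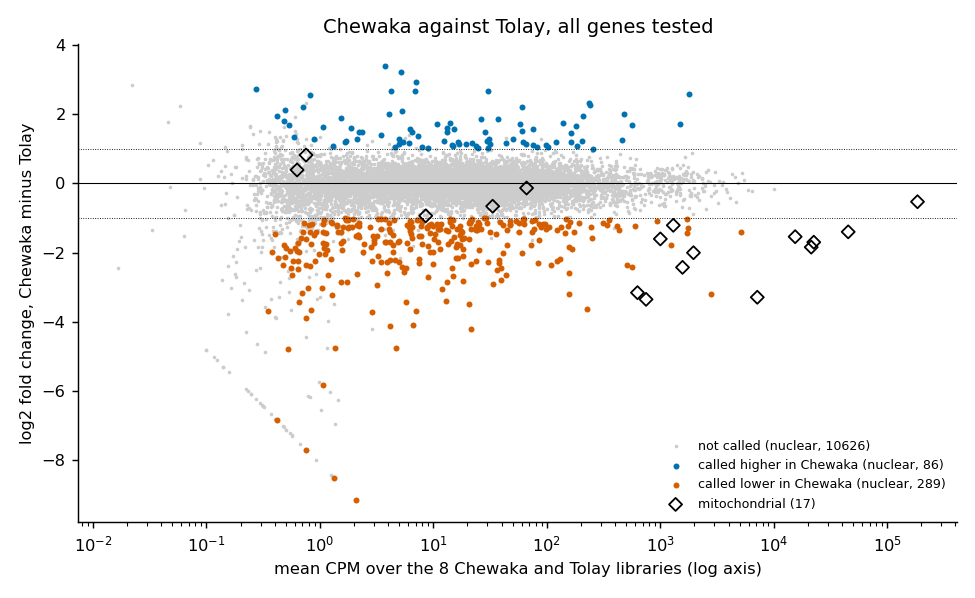
Log2 fold change, CHW minus TOL, of each gene tested against its mean CPM over the 8 libraries on a log axis, with dotted lines at 2-fold. Blue points are the 86 nuclear genes called higher in Chewaka, orange points the 289 called lower, grey points the genes not called and diamonds the 17 mitochondrial genes tested, most of which lie below 0. The 4 lowest orange points have no count in any CHW library, so their fitted values depend on the prior count.

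Calls were found at all levels of expression. Of the 2755 least abundant genes, with mean levels up to 4.36 CPM, 22 were higher and 112 lower, or 4.86%. Of the 2755 most abundant, from 42.9 CPM upward, 28 were higher and 70 lower, or 3.56%. The median standard error was 0.332 in the former and 0.134 in the latter, so a 2-fold difference was measured less precisely in rare transcripts. Among the genes called lower, 4 had no count in any CHW library. No gene called higher was without counts in all TOL libraries.

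The comparison was repeated within the first run, with CHW replicates 1 and 2 against the 4 TOL libraries. It called 416 of 10804 genes (3.85%), 108 higher (1%) and 308 lower (2.85%). Of the 86 genes called higher with both runs, 68 were called higher again, and of the 300 called lower, 212 were. None of the 386 was called in the opposite direction. Inside CHW, replicates 3 and 4 against 1 and 2 gave 0 calls among 11352 genes (0%) in edgeR's test and 1 call in DESeq2, with 593 genes (5.22%) at an unadjusted p under 0.05 in edgeR. With 2 libraries on each side, a lack of calls does not show that the runs were alike.

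Fewer genes were called without TOL replicate 1. Without it 304 of 11111 genes (2.74%) were called, 77 higher (0.693%) and 227 lower (2.04%), and 68 of the 86 and 213 of the 300 were called again. Such a fall was not particular to this library. The total was 297 without CHW replicate 1 and 275 without CHW replicate 2, but 435 without TOL replicate 4. Within the first run and without TOL replicate 1 together, 324 of 10770 (3.01%) were called, 107 higher (0.994%) and 217 lower (2.01%), including 63 of the 86 and 153 of the 300. In 114 genes TOL replicate 1 had 10 or more counts and no other TOL library more than 2. They took 0.0236% of its counts, and 0.26%, 0.0502% and 0.0183% in SEK replicates 1, 3 and 4. Of these genes 69 passed the filter on low counts, and 2 of the 69 were called lower in CHW, where 2.72% of all genes tested were. The genes were picked by their TOL counts, so these calls only describe them and test nothing.

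Those 2 and 1 further gene rested on TOL replicate 1 by itself, and were picked out after their values were seen. AARA001216 had 162 counts in TOL replicate 1 and 0 in the other 7 libraries. AARA005223 had 247 counts there, 2 in each other TOL library and 0 in CHW. AARA005530 had 2393 counts in TOL replicate 1, 15, 39 and 26 in TOL replicates 2 to 4, and 24 to 49 in CHW. Its log2 fold change of -4.21 became 0.32 (edgeR adjusted p = 0.863) without TOL replicate 1, the only change of sign among the 386 genes in these 3 repeats.

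Called in the same direction in the full comparison and in all 3 repeats, and with no CHW library overlapping a TOL library, were 36 genes higher and 121 lower in CHW, the latter made up of 115 nuclear and 6 mitochondrial genes. Over all genes tested, 837 (7.6%) had every CHW library above every TOL library and 906 (8.22%) had every CHW library below. The nuclear genes described next are those of the 36 and the 115 with the largest changes, ranked by their weakest change in the 4 fits, and the most abundant of the 36.

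AARA006019 had 13.6, 15.4, 6.41 and 2.503 CPM in CHW replicates 1 to 4 and 0.464, 0.599, 1.34 and 1.60 CPM in TOL replicates 1 to 4. Every CHW library lay above every TOL library, and the gap between CHW replicate 4 and TOL replicate 4 was small, at 50 against 25 counts. The log2 fold change was 3.22 (SE 0.586, edgeR adjusted p = 0.00219), and within the first run it was 3.85.

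AARA008580 had 82.3, 78.1, 33.0 and 14.97 CPM in CHW and 14.5, 5.99, 5.65 and 6.61 CPM in TOL, again in replicate order. Here CHW replicate 4 and TOL replicate 1 nearly met, at 299 and 219 counts. The log2 fold change was 2.67 (SE 0.520, edgeR adjusted p = 0.0032), and without TOL replicate 1 it was 3.09.

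AARA001672 was the most abundant gene that was higher in CHW under all 4 fits. It had 4812, 4202, 2526 and 857 CPM in CHW and 710, 372, 704 and 285 CPM in TOL. The log2 fold change was 2.58 (SE 0.479, edgeR adjusted p = 0.00239). In all 3 of these genes the 2 first-run CHW libraries were the highest and CHW replicate 4 the lowest, with log2 differences between the second-run and first-run CHW libraries of -1.71, -1.75 and -1.41 (edgeR adjusted p = 0.826, 0.762 and 0.885).

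AARA002578 had no count in the 4 CHW libraries and 12, 12, 21 and 5 counts in TOL replicates 1 to 4. At 0.826 CPM over the pooled TOL libraries, it was at least 18.4-fold lower in CHW, taking 3 counts over the whole CHW group as the floor (edgeR adjusted p = 0.00126). The fitted change by which it was ranked depends on the prior count. AARA002578 did not pass the filter in the fit of the 8 CHW and TOL libraries alone, nor a filter of CPM of 1 in 4 libraries. AARA011753 had 1.37, 0.574, 1.63 and 0.551 CPM in CHW against 9.87, 19.5, 15.7 and 7.51 CPM in TOL. The lowest TOL library thus lay well above the highest CHW library, and the log2 fold change was -3.68 (SE 0.518, edgeR adjusted p = 0.000488).

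**Figure D2:**
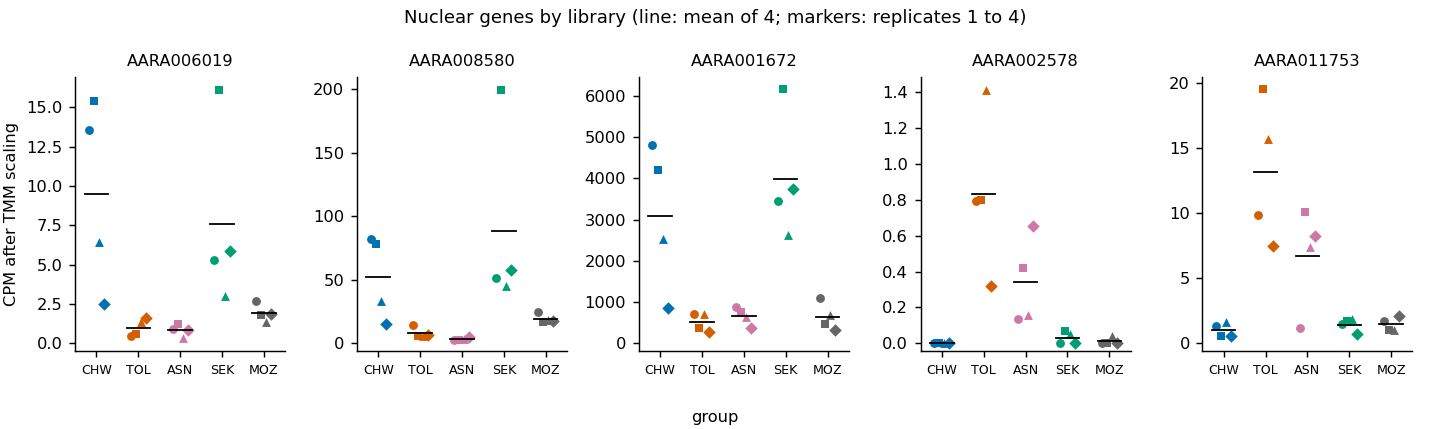
CPM of 5 nuclear genes in each of the 20 libraries, by group, with a line at the mean of 4 and a marker shape for each replicate number. For the 3 genes on the left the CHW and SEK means lie above the TOL, ASN and MOZ means, and for the 2 genes on the right the TOL and ASN means lie above the others.

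The levels of these genes in the other groups were read beside both populations. AARA001672 had 667 ± 216 CPM in ASN, 3995 ± 1519 in SEK and 647 ± 344 in MOZ, against 3099 ± 1780 in CHW and 518 ± 222 in TOL (mean ± SD, n = 4 each). Its ASN and MOZ levels were thus near those of TOL and its SEK level near that of CHW. AARA011753 had 6.74 ± 3.87 CPM in ASN, where ASN replicate 1 was at 1.17, and 1.45 ± 0.517 in SEK and 1.49 ± 0.534 in MOZ. Both laboratory strains and 1 of 4 ASN libraries were therefore near the CHW level.

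For all nuclear genes called, each library was placed on a scale on which 0 is the TOL mean and 1 the CHW mean of a gene's log2 CPM, and the median over genes was taken. The places of CHW and TOL libraries follow from the choice of genes and only show how the replicates vary. Over the 86 higher genes CHW replicates 1 to 3 lay at 1.15, 1.18 and 1.16 and CHW replicate 4 at 0.477, about midway to TOL. In 63 of the 86 genes CHW replicate 4 was the CHW library nearest to TOL. Over the 289 lower nuclear genes the CHW libraries were closer together, from 0.838 in replicate 3 to 1.09 in replicate 4, while TOL replicate 4 was at 0.168 and was the TOL library nearest to CHW in 149 of them.

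The 12 libraries that did not enter the contrast lay in different places on the 2 scales. For the lower genes, SEK libraries were at 1.06 to 1.21 and MOZ libraries at 1.08 to 1.21, beside CHW. ASN replicates 2 to 4 were at 0.187 to 0.292, nearer to TOL, and ASN replicate 1 was at 0.759. Of the 289 genes, 221 had an ASN mean nearer to TOL, whereas 250 had a SEK mean and 232 a MOZ mean nearer to CHW. For the 86 higher genes only SEK lay near CHW, at 0.707 to 0.884, with 60 genes nearer to CHW. MOZ libraries were at 0.162 to 0.307 and ASN libraries at 0.0251 to 0.352, with 31 and 25 of the 86 genes nearer to CHW. Such counts were not taken over all genes tested, so they are not shown to be particular to the genes called. ASN and TOL were in the first run and SEK and MOZ in the second, so for these groups run and origin cannot be told apart.

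**Figure D3:**
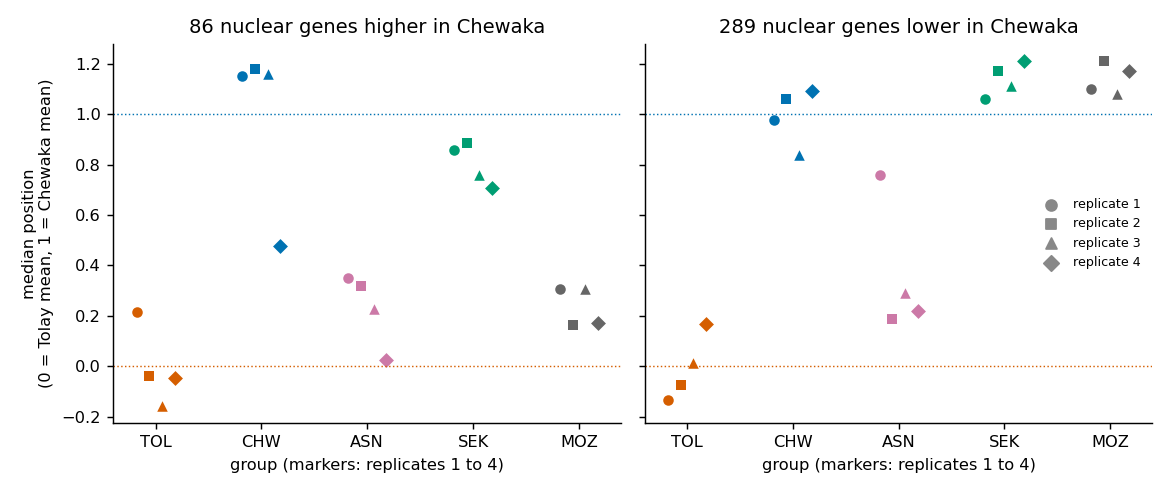
Median place of each of the 20 libraries between the TOL mean (0) and the CHW mean (1), over the 86 nuclear genes called higher in CHW on the left and the 289 called lower on the right. On the left CHW replicate 4 stands at 0.477, below the other CHW libraries and every SEK library, and on the right all SEK and MOZ libraries stand at 1.06 or above, near the CHW mean.

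Most mitochondrial protein-coding genes were lower in Chewaka. Of the 13 protein-coding genes 10 were called lower and 0 higher, where 2.72% of all genes were called lower. The median log2 fold change over the 13 was -1.70, beside 0.01 over all genes tested. With library totals alone 9 were called and the median was -1.43. Together the 13 took 4.44%, 6.25%, 9.07% and 2.65% of the counts in CHW replicates 1 to 4 and 16.9%, 14.97%, 15.1% and 11.96% in TOL replicates 1 to 4. No CHW library reached the lowest TOL library, and the 95% Wilson interval of each share was at most 0.0328 percentage points wide, for counting error only. The difference of means, CHW minus TOL, was -9.14 percentage points (exact 2-sided permutation p = 0.0286, the smallest that 4 against 4 libraries can give, adjusted p = 0.0571 over 4 shares tested). Within the first run the difference was -9.39 points, with the smallest p possible there, 0.0667 (exact permutation, adjusted p = 0.133). In the other groups the share was 10.8% to 14.7% in ASN, sequenced in the first run, and 0.573% to 5.49% in SEK and MOZ, sequenced in the second. For those groups run and origin cannot be told apart. Since whole insects were sequenced, fewer cells rich in mitochondria and fewer transcripts per cell cannot be told apart.

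The log2 fold changes of the complex I subunits ranged from -3.35 for ND3 to -0.14 for ND6. The subunits were not tested against each other. ND3, a small membrane subunit, had 188, 123, 144 and 79.9 CPM in CHW and 2128, 304, 1814 and 1217 CPM in TOL. ND2, a core proton-pumping subunit, had 245, 123, 51.1 and 88.3 CPM in CHW and 2314, 140, 1292 and 785 CPM in TOL. In both genes TOL replicate 2 was low, and for ND2 it lay below CHW replicate 1, so the groups overlapped. ASN replicate 2 was low in the same genes, at 275 CPM for ND3 and 111 CPM for ND2. The other ASN libraries had 1086 to 1628 CPM for ND3 and 966 to 1418 CPM for ND2. In CHW, replicate 4 was lowest for ND3 and replicate 3 for ND2. The cause was not tested. The log2 fold change was -3.35 for ND3 (SE 0.532, edgeR adjusted p = 0.000899) and -3.16 for ND2 (SE 0.729, edgeR adjusted p = 0.00897). Within the first run ND2 was no longer called, at -2.62 (edgeR adjusted p = 0.132), and without TOL replicate 1 it was -2.54 (edgeR adjusted p = 0.0343). ND3 was called in the first run and without TOL replicate 1, but not with both restrictions together (-2.82, edgeR adjusted p = 0.0605).

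ND5 and ND4, the large proton-pumping subunits, fell with less scatter. ND5 had 229 to 628 CPM in CHW and 1791 to 3781 CPM in TOL, and the log2 fold change was -2.43 (SE 0.379, edgeR adjusted p = 0.000851). ND4 had 308 to 1067 CPM in CHW and 2057 to 4410 CPM in TOL, with -2.005 (SE 0.369, edgeR adjusted p = 0.00233). Both were called in all 3 repeats. ND1, which lies at the junction with the hydrophilic arm of complex I, had 259 to 1014 CPM in CHW and 1139 to 2181 CPM in TOL, with -1.21 (SE 0.314, edgeR adjusted p = 0.0165). It lost its call without CHW replicate 4 (-0.93), within the first run (-0.95) and with library totals alone (-0.92), where it was below 2-fold. The call was also lost without TOL replicate 1, in the fit of the 8 CHW and TOL libraries and with replicate block and run together, with adjusted p-values of 0.0507, 0.07 and 0.0772 in edgeR.

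ND4L and ND6 were not called. ND4L had 12.5 to 35.9 CPM in CHW and 21.9 to 55.4 CPM in TOL (log2 fold change -0.66, SE 0.328, edgeR adjusted p = 0.192). ND6 had 103, 57.4, 45.0 and 47.6 CPM in CHW and 50.7, 116, 70.1 and 41.0 CPM in TOL (-0.14, SE 0.339, edgeR adjusted p = 0.84). The ND6 ranges overlapped almost entirely, and its sign turned with library totals alone (0.18), within the first run (0.22) and without TOL replicate 2 (0.23).

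CYTB, the mitochondrially encoded subunit of complex III, had 7965, 10747, 14895 and 3745 CPM in CHW and 42280, 35481, 34869 and 21439 CPM in TOL. The lowest TOL library lay above the highest CHW library, and the log2 fold change was -1.84 (SE 0.404, edgeR adjusted p = 0.0065). It was called in all 3 repeats and without each of the 8 libraries in turn.

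The 3 catalytic and core subunits of complex IV were also lower. COX1, the catalytic subunit, had 17183, 27081, 44321 and 11059 CPM in CHW and 76842, 74392, 67524 and 44480 CPM in TOL. CHW replicate 3 lay just below TOL replicate 4, so the groups touched without overlapping. The log2 fold change was -1.40 (SE 0.420, edgeR adjusted p = 0.0335), and this call was lost without CHW replicate 1, 2 or 4 or TOL replicate 1, 2 or 3, with adjusted p-values of 0.0629 to 0.105 in edgeR. COX2, which takes up electrons from cytochrome c, had 3872 to 12574 CPM in CHW and 15910 to 29503 CPM in TOL, with -1.54 (SE 0.382, edgeR adjusted p = 0.013). COX3 had 3680 to 19638 CPM in CHW and 21742 to 42753 CPM in TOL, with -1.70 (SE 0.438, edgeR adjusted p = 0.016). Both were called in all 3 repeats, and COX3 lost its call without CHW replicate 1 (edgeR adjusted p = 0.0572).

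Of the ATP synthase subunits, ATP6, part of the proton channel, had the clearest difference of all mitochondrial genes by adjusted p. It had 1383, 1150, 2249 and 536 CPM in CHW and 19403, 7655, 14817 and 10150 CPM in TOL. Even TOL replicate 2, the lowest TOL library, was above every CHW library. The log2 fold change was -3.29 (SE 0.484, edgeR adjusted p = 0.000558), and it lay between -3.67 and -3.03 when any of the 8 libraries was left out. ATP8, whose reading frame overlaps that of ATP6, had 2.503 to 10.4 CPM in CHW and 5.13 to 16.01 CPM in TOL and was not called (-0.94, SE 0.413, edgeR adjusted p = 0.14). Without CHW replicate 3 it was called, at -1.37 (edgeR adjusted p = 0.044). Reads shared by overlapping genes may have been assigned to neither, so the level of ATP8 is uncertain.

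**Figure D4:**
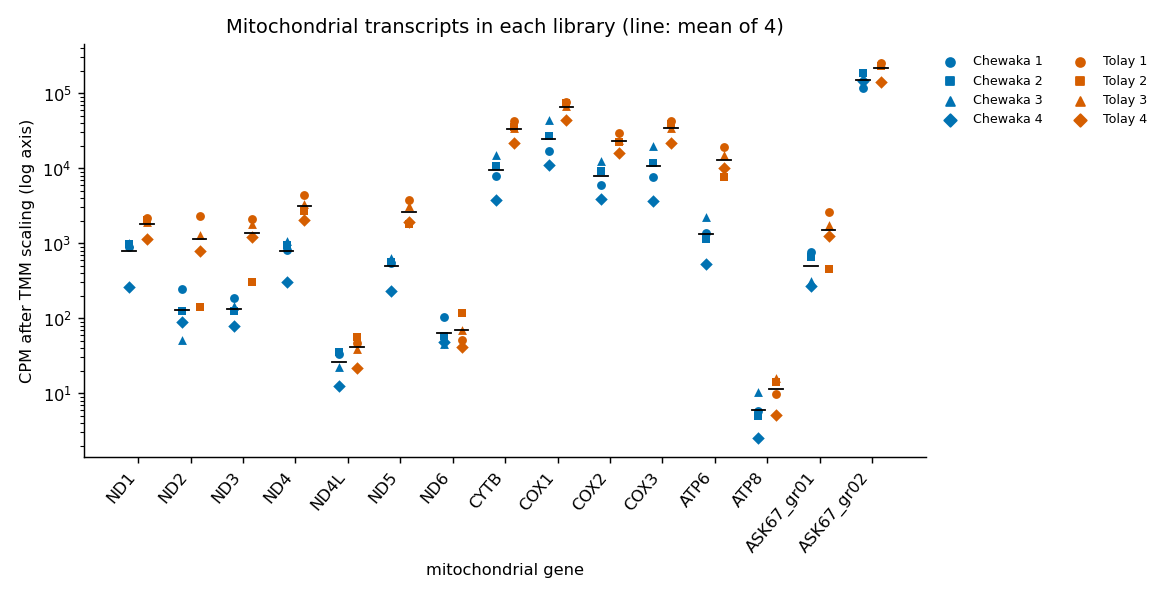
CPM of the 13 mitochondrial protein-coding genes and the 2 ribosomal RNA genes in the 8 libraries on a log axis, with a marker for each replicate number and a line at the mean of 4. CHW libraries lie below TOL libraries in most genes, TOL replicate 2 drops to the CHW range in ND2 and the smaller ribosomal RNA gene ASK67_gr01, and CHW and TOL interleave in ND6.

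Of the other 12 protein-coding genes, 10 were also set against COX1 within their own library, a ratio that scaling does not touch. The permutation tests used log2 ratios, and none of the 10 passed after adjustment. With 4 libraries a group, a ratio that separated fully could not pass alone, so this does not show that the ratios were alike. ATP6 had 55.5 ± 17.01 counts per 1000 COX1 counts in CHW and 201 ± 66.7 in TOL (SD, n = 4 each), with no overlap between the groups. TOL replicate 2 was at 102.9, nearer to the highest CHW library, at 80.5, than to the other TOL libraries, at 219.4 to 252.5. ASN replicate 2 was at 76.9 and the other ASN libraries at 239.6 to 253.8. CYTB had 384 ± 60.1 in CHW and 506 ± 34.1 in TOL, and COX3 411 ± 52.4 in CHW and 519.9 ± 28.6 in TOL, also without overlap. Each of these 3 gave an exact 2-sided permutation p of 0.0286, the smallest possible, which over the 10 ratios tested became an adjusted p of 0.0952. COX2 stood at 330.3 ± 31.3 in CHW and 350.4 ± 33.1 in TOL (exact permutation p = 0.4, adjusted p = 0.444). The ratios of ND2, ND3, ND4 and ND5 were also lower in CHW on average, with adjusted p-values of 0.143 to 0.429 (exact permutation). Those of ND1 and ND6 were higher in CHW on average, at 33.6 ± 13.7 against 27.5 ± 1.27 and 3.36 ± 2.23 against 1.05 ± 0.378 counts per 1000 COX1 counts (exact permutation p = 0.543 and 0.0857, adjusted p = 0.543 and 0.143).

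Of the 2 ribosomal RNA genes 1 was called lower, and neither was called in any of the 3 repeats. ASK67_gr02, the most abundant gene in the table, had 117822 to 184326 CPM in CHW and 139691 to 255124 CPM in TOL, with overlapping groups, and its log2 fold change was -0.53 (SE 0.257, edgeR adjusted p = 0.179). Its share of counts was 15.4% ± 2.58 in CHW and 17.9% ± 2.82 in TOL (exact permutation p = 0.257, adjusted p = 0.257). ASK67_gr01 had 754, 650, 312 and 266 CPM in CHW and 2582, 454, 1738 and 1260 CPM in TOL, with -1.61 (SE 0.506, edgeR adjusted p = 0.0423). TOL replicate 2 lay among the CHW libraries, as it did for ND2, and the call was lost within the first run (-1.10, edgeR adjusted p = 0.314) and without TOL replicate 1 (-1.22, edgeR adjusted p = 0.155). It was also lost without CHW replicate 2, 3 or 4 or TOL replicate 3, with adjusted p-values of 0.0694 to 0.0982 in edgeR. Of the 22 transfer RNA genes 2 had enough counts to be tested and 0 were called, with unadjusted p-values of 0.159 and 0.614 in edgeR.

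Inside CHW the 13 protein-coding genes had a median log2 difference of -0.35 between the second-run and the first-run libraries, and none was called. That test, with 2 libraries on each side, called 0 of 11352 genes, so the lack of calls does not show that the runs were alike. The highest and the lowest mitochondrial protein-coding share in CHW were both from the second run, at 9.07% in replicate 3 and 2.65% in replicate 4. In ND2, ND4L, ND6 and ASK67_gr01, however, both first-run CHW libraries lay above both second-run ones. A fit with a term for the run, estimated from CHW only, called 5 of the 13 genes: CYTB, ND3, ND4, ND5 and ATP6. In that fit COX1, COX2 and COX3 had log2 fold changes of -1.57, -1.60 and -1.85 with adjusted p-values of 0.0773, 0.0512 and 0.0508 in edgeR, and ND1 and ND2 had -0.96 and -2.62 with 0.12 and 0.0741.

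**Figure D5:**
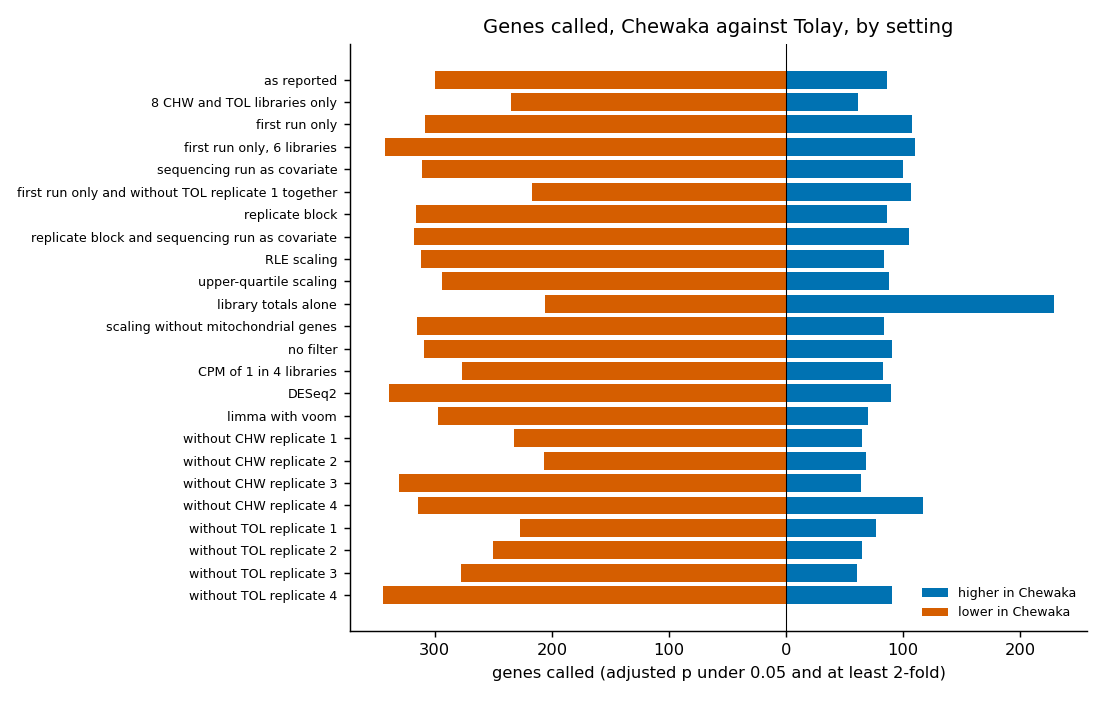
Number of genes called higher (blue, to the right) and lower (orange, to the left) in CHW than in TOL in the comparison as reported and in each alternative that kept the same threshold. Lower genes outnumber higher ones in every bar pair except with library totals alone, where 229 genes are higher and 206 lower.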

How the data were processed

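The deposited table holds raw counts per gene: its values are whole numbers and library totals differ, as they do before normalization. Per the labels' protocols, reads were paired, of 125 bp and strand-specific, and the sequencing facility trimmed them. FastQC 0.11.4, HISAT2, Cufflinks, SAMtools 1.5 and HTSeq 0.9.0 are named in the submitters' processing notes, without their roles. Not given in the sources used here are the genome build, the annotation and whether counting used the strand, so overlapping and near-identical genes are uncertain and no coordinates are printed. Each of the 20 columns carries the name of 1 sample.

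Genes were kept with filterByExpr by group and tested with edgeR 4.0.16 in R 4.3.3 (TMM, quasi-likelihood F test, 5 groups, all 20 libraries), with p-values adjusted by Benjamini-Hochberg over all 11018 genes. A gene was called at an adjusted p under 0.05 and a fold of at least 2. Standard errors of log2 fold changes were derived as the change over the square root of F. Log2 CPM used a prior count of 2. The test was tried on simulated counts. Alternatives used DESeq2 1.42.0 and limma 3.58.1 with voom, other scalings and filters, and left out each library.

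No 2 replicates agreed within sampling noise (chi-square per degree of freedom of 31.2 or more). The labels call them biological replicates without saying how the pools were formed. By the naming rule, all mitochondrial protein-coding and ribosomal RNA genes are named, and of the genes called in all 4 fits without overlap of libraries, the 2 nuclear genes with the largest changes in each direction and the most abundant gene in each direction (AARA001672 and the mitochondrial COX3). AARA001216, AARA005223 and AARA005530 were named after their values were seen. The members and lists were chosen with earlier results of these data known. Planned lists of nuclear families could not be described, since no AARA identifier matched, and for the same reason the labelled material, whole insects, was not checked against marker genes.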

Additional observations from a re-analysis of the deposited data

Results flagged for a closer look

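In 48 groups of 4 values examined for a single distant library, 3 were marked by Dixon's ratio at its 95% critical value, where chance marks about 1 in 20. In CHW replicate 4 the log2 CPM of ND1 was 8.02, against 9.81 to 9.99 in the other CHW libraries, and that of ND5 was 7.84, against 9.10 to 9.29. In TOL replicate 1 the log2 CPM of AARA008580 was 3.87, against 2.53 to 2.75 in the other TOL libraries. CHW replicate 4 also had the lowest mitochondrial protein-coding share of the 8 libraries, at 2.65%.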

How the results depend on the processing

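The number of genes called was 1430 with no fold minimum and 117 under a test against a fold of 1.5. The former were 615 higher and 815 lower and the latter 17 higher and 100 lower. With no fold minimum 43% of the calls were higher in CHW, beside 22.3% of the 386, so the excess of lower genes was smaller there. In the other alternatives with the 2-fold threshold the number called lay within 1.5 times of 386, and leaving out 1 library gave 275 (without CHW replicate 2) to 435 (without TOL replicate 4). The fit of the 8 CHW and TOL libraries alone called 297 genes, 62 higher and 235 lower. Of the 13 mitochondrial protein-coding genes it called 8. ND1, COX1 and ASK67_gr01 lost their calls there, with adjusted p-values of 0.07, 0.0545 and 0.0682 in edgeR. Of the 386 genes, 199 were called without each of the 8 libraries in turn, 34 higher and 165 lower. None was called in the opposite direction in any alternative. The 13 mitochondrial protein-coding genes gave 5 calls with the sequencing run as a covariate, 4 under the test against a fold of 1.5 and 8 to 11 with 1 library left out. The cause was not tested. The share of mitochondrial protein-coding counts differed by -9.39 percentage points within the first run (exact permutation p = 0.0667, the smallest possible) and by -11.42 points with the ribosomal RNA genes left out of the total. ND6 turned its sign, to 0.22 in the first run, 0.21 there with 6 libraries, 0.21 with the run as a covariate, 0.097 in the first run without TOL replicate 1, 0.082 with replicate block plus run covariate, and 0.18 with library totals alone; with 1 library left out it lay between -0.47 and 0.23 (without TOL replicate 2). Within CHW, DESeq2 called 1 gene between the runs.

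Deviations of same-numbered CHW and TOL libraries from their group means had correlations of -0.187 to 0.0395. Those of differently numbered libraries had -0.119 to 0.163. These correlations cover CHW and TOL only. TOL replicate 2 and ASN replicate 2 were each the lowest of their group for ND2, ND3, ND5, ATP6 and ASK67_gr01. For ASK67_gr01 they had 454 and 429 CPM, against 1260 to 2610 CPM in the other TOL and ASN libraries. CHW replicate 2 was not the lowest CHW library for any of these genes. For the other mitochondrial protein-coding genes TOL replicate 4 was the lowest TOL library. The labels do not say how the pools were formed, so shared handling under the same number cannot be judged. With the replicate block the fit called 402 genes, and the paired exact sign-flip test of the mitochondrial share, a difference of -9.14 points, gave p = 0.125, the smallest that 4 pairs allow. The fit of the first run with 6 libraries and the alternatives for the run effect were chosen after seeing the data. Depth limits rare transcripts most.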
